A study of Mus musculus with 16 samples.

Results

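Antibody against PD-L1 and exercise are 2 single treatments of the same grafted tumour, and the comparison described here sets one against the other directly. It uses the 4 libraries titled anti-PDL1 and the 4 titled exercise, 8 of the 16 in the series, and covers all genes. The tumours grew under the skin of mice from MC38 cells, a colon carcinoma line of the mouse, and total RNA of each tumour was measured by sequencing. The anti-PDL1 group received the antibody without exercise, the exercise group exercised without the antibody, and the 4 control and 4 exercise with anti-PDL1 libraries are used for the shared estimate of the spread and for values set side by side. All 4 groups carry the same grafted line. No label or design text used here states the mouse strain, sex or age, the antibody dose or the exercise regime. PD-1 blockade is the wording of the series title, and anti-PDL1 that of the labels, which is kept. No label states that each library is a different animal, and the p-values therefore reflect the spread among libraries, possibly a technical one.

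PD-L1 is a surface protein of tumour and immune cells that binds the receptor PD-1 on T cells and dampens their response. Blocking it can release T cells, which then secrete interferon gamma. Interferon gamma acts through the kinases JAK1 and JAK2. It induces the machinery of MHC class I presentation, in which the immunoproteasome cuts proteins into peptides, the transporter TAP carries them into the endoplasmic reticulum, and class I heavy chains with beta 2-microglobulin show them to CD8 T cells. The same signal induces guanylate-binding proteins and immunity-related GTPases, which attack membranes around intracellular microbes, and PD-L1 itself. Exercise is known to change circulating immune cells, stress hormones and muscle metabolism.

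The 8 libraries were alike in technical range. Their FPKM summed to between 478672 and 529732, and between 11372 and 11595 genes reached 1 FPKM. FPKM is a level per transcript length, scaled to the library, and holds no read count, so the depth is unknown. Correlations of log2(FPKM + 1) across genes lay between 0.9886 and 0.9933 within the anti-PDL1 group, between 0.989 and 0.995 within the exercise group, and between 0.9789 and 0.9922 across the groups. On the first principal component of the 8 libraries, which held 39.36% of their variance, the exercise libraries lay at -22.85, -22.62, -7.08 and -17.11 and the anti-PDL1 libraries at 13.43, 17.44, 8.86 and 29.94. The groups did not overlap there, with exercise 3 and anti-PDL1 3 nearest to each other. Of 12 listed markers of gut epithelium, 9 were under 1 FPKM in all 8 libraries. Epcam lay between 0.05 and 0.17 FPKM and Krt8 between 0 and 0.11 FPKM. Both were thus almost absent from tumours labelled as a colon carcinoma line. Krt19, Cdh1 and Lgals4 of the same list were high enough to be tested. The summed list ran from 12.3 to 16.9 FPKM with anti-PDL1 and from 9.96 to 14.1 FPKM with exercise. Lymphocyte markers were low as well: 8 of 18 T cell markers stayed under 1 FPKM in all 8 libraries, and the summed T cell list ran from 17.7 to 38.4 FPKM with anti-PDL1 and from 22.1 to 27.9 FPKM with exercise.

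Anti-PDL1 tumours stood above exercise tumours in class I presentation genes, interferon gamma targets, a cluster of matrix metalloproteinases and several inflammatory mediators, and below them in Ctxn1, Maml3 and a broad set of smaller differences. Of 11868 genes tested, 188 (1.58%) had an adjusted p under 0.05 (limma, adjusted over all tested genes by Benjamini-Hochberg), and these are the genes said to be called. With anti-PDL1, 95 of them were higher (0.8% of genes tested) and 93 lower (0.784%). The rises were larger than the falls. Of the called genes, 38 rose by at least 1 on the log2(FPKM + 1) scale and 6 fell by as much, and the median log2 fold change was 0.81 among those called higher and -0.58 among those called lower. The median over all tested genes was -0.035, with 44.1% of genes above 0. The 4 anti-PDL1 libraries did not overlap the 4 exercise libraries in 183 of the 188 genes, against 12.5% of all tested genes. The calls were made on the same libraries, so little overlap among them follows largely from that choice. Before adjustment, limma gave 2710 genes a p under 0.05, 22.8% of those tested, 1135 higher and 1575 lower.

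**Figure D1:**
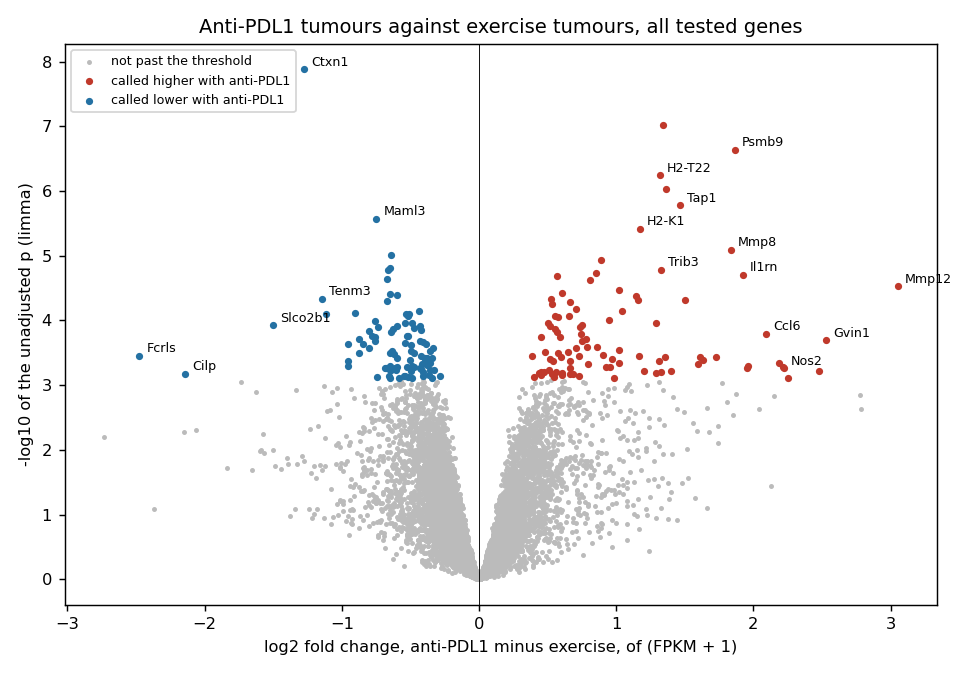
Each point is a tested gene, with the log2 fold change of (FPKM + 1), anti-PDL1 minus exercise, on the x axis and -log10 of the unadjusted limma p on the y axis. The 95 genes called higher (red) reach further from 0 than the 93 called lower (blue), and Ctxn1 has the smallest p.

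The number of genes called rested on single libraries. All 188 kept their direction in every setting that tested them. For the 183 without overlap between groups, leaving out a library cannot reverse it, so the kept direction is no test of stability. Without exercise 2 there were 9 calls, without anti-PDL1 4 there were 13, without exercise 4 there were 25 and without anti-PDL1 2 there were 31. Without exercise 3, anti-PDL1 1 and exercise 1 there were 99, 111 and 158, and without anti-PDL1 3 there were 422. Leaving out a library also leaves only 3 in its group. Without the filter on low values 77 genes were called, 71 of them among the 188, and in the fit of only the 8 libraries compared 210 were called, 108 of them among the 188. In all 19 alternative settings 5 genes were called, namely Psmb9, Tap1, H2-T22, H2-K1 and Ctxn1. A further pair, H2-T10 and Maml3, was called in all 18 settings that tested it.

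**Figure D2:**
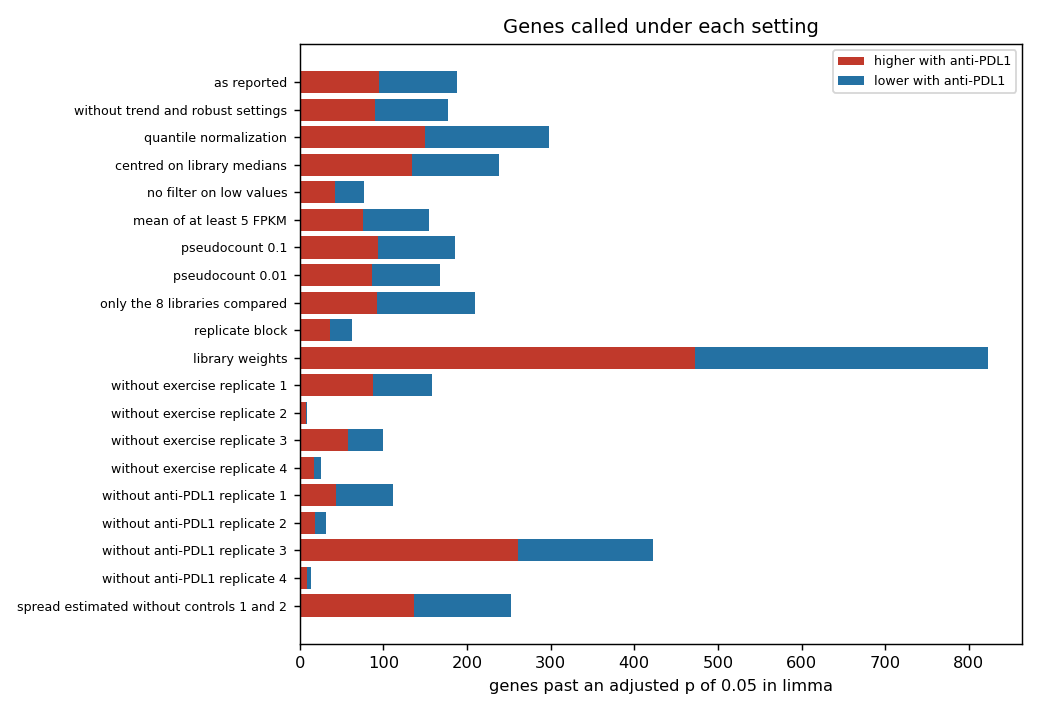
Bars give the number of genes past an adjusted p of 0.05 in limma under each setting, split into higher (red) and lower (blue) with anti-PDL1. The count is 188 as reported, falls to 9 without exercise 2 and rises to 823 when each library is weighted by how closely it follows its group.

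Genes of MHC class I presentation were higher with anti-PDL1. Of 20 listed and tested, 10 were called higher and none lower, against 0.8% and 0.784% of all tested genes. The groups did not overlap in 14 of the 20 (4.42% of all tested genes did so in that direction), and all 20 had a fold change above 0. Their median log2 fold change was 0.87. Summed over the list, the level was 6182, 4967, 4751 and 6473 FPKM in anti-PDL1 1 to 4 and 2924, 2804, 3316 and 2405 FPKM in exercise 1 to 4. In bulk tumour RNA, more cells that express a gene and more RNA per cell cannot be told apart.

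Psmb9, the beta 1i subunit of the immunoproteasome (chromosome 17, 34182030 to 34187330, GRCm38.p6), measured 84.8, 52.8, 53.4 and 61.3 FPKM with anti-PDL1 and 14.99, 13.7, 23.8 and 14.3 FPKM with exercise. Every anti-PDL1 library lay above every exercise library, with anti-PDL1 1 the highest and exercise 3 the highest of its group. The means were 63.1 ± 14.98 and 16.7 ± 4.78 FPKM (SD, n = 4 each), which is 1.86 ± 0.21 (standard error) on the log2 scale, with an adjusted p of 0.000906 in limma. Psmb8, the beta 5i subunit, averaged 81.6 ± 21.5 and 36.0 ± 6.92 FPKM (log2 fold change 1.15, adjusted p = 0.0196). Psmb10, the third inducible subunit, was not called: its log2 fold change was 0.53 (adjusted p = 0.18), and its 4 anti-PDL1 values of 72.8, 45.3, 35.2 and 29.0 FPKM overlapped the exercise range of 24.1 to 34.3 FPKM. Psme1, a subunit of the proteasome activator PA28, had a log2 fold change of 0.37 (adjusted p = 0.0883) with groups that did not overlap. The call of Psmb8 was lost without exercise 2 or anti-PDL1 4, with an adjusted p up to 0.0622.

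Tap1, a chain of the peptide transporter (chromosome 17, 34187556 to 34197225), measured 79.99, 52.0, 57.2 and 78.3 FPKM with anti-PDL1 and 20.3, 21.96, 32.8 and 19.5 FPKM with exercise. The groups did not overlap, and exercise 3 was again the highest of its group. On the log2 scale the rise was 1.47 ± 0.20 (standard error) (adjusted p = 0.0033). Tap2, the partner chain, averaged 37.2 ± 6.04 and 20.3 ± 4.63 FPKM (log2 fold change 0.86, adjusted p = 0.0361), a call lost without exercise 1, 2 or 4 or anti-PDL1 1, 2 or 4 (adjusted p up to 0.0917). Psmb9 and Tap1 start beside each other on opposite strands, and 225 of the 250 bases before each start are shared between them. The window before Psmb9 is shown because both genes were called in all settings and their windows are largely the same stretch of DNA. It is chr17:34187331-34187580 of GRCm38.p6 from RefSeq, read on the minus strand, with capitals marking GCGCCAAA, a reading of the E2F motif TTTNGCGC, and ATTGG, a reading of the NF-Y motif CCAAT.
Psmb9: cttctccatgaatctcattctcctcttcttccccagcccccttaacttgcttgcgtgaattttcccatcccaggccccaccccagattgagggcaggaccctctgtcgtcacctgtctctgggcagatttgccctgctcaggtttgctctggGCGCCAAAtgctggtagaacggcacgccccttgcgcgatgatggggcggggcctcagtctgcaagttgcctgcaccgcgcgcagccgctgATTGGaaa

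The heavy chain and light chain genes followed. H2-K1, a classical class I heavy chain, measured 1443, 1218, 1373 and 1591 FPKM with anti-PDL1 and 717, 643, 726 and 444 FPKM with exercise. There was no overlap (log2 fold change 1.17, standard error 0.17, adjusted p = 0.00566). H2-D1, the other classical chain of this haplotype, had a log2 fold change of 0.89 (adjusted p = 0.0125), from 732 ± 130 to 1342 ± 143 FPKM. B2m, which encodes beta 2-microglobulin, measured 2160, 1673, 1205 and 2445 FPKM with anti-PDL1 and 919, 881, 1130 and 843 FPKM with exercise. Its lowest anti-PDL1 library, anti-PDL1 3, stood just above its highest exercise library, exercise 3 (log2 fold change 0.95, adjusted p = 0.0265). Nlrc5, the transactivator of class I genes, averaged 24.7 ± 5.96 and 11.4 ± 2.74 FPKM (log2 fold change 1.04, adjusted p = 0.0239). H2-D1, B2m and Nlrc5 lost their calls without exercise 2 or anti-PDL1 4, and the last pair also without exercise 4 or anti-PDL1 2, with adjusted p-values up to 0.0506, 0.0889 and 0.0831. B2m was also not called after quantile normalization or without anti-PDL1 1.

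Among the non-classical genes, H2-T22 (chromosome 17, 36037128 to 36042742) measured 129, 99.6, 101 and 124 FPKM with anti-PDL1 and 37.7, 48.1, 54.9 and 39.8 FPKM with exercise, with no overlap (log2 fold change 1.32, standard error 0.16, adjusted p = 0.00169). H2-T10, which RefSeq lists as a transcribed pseudogene, averaged 6.68 ± 1.15 and 2.03 ± 0.44 FPKM (log2 fold change 1.34, adjusted p = 0.000574). H2-Q4 was called as well (log2 fold change 0.75, adjusted p = 0.0316). Copies of class I genes are close to identical and may share reads, so the split between single H2 genes is uncertain. The number of listed class I genes called was 4 without exercise 2 or anti-PDL1 4, 6 without exercise 4 or anti-PDL1 2, 7 without anti-PDL1 1, 8 without exercise 1, 10 without exercise 3 and 12 without anti-PDL1 3.

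**Figure D3:**
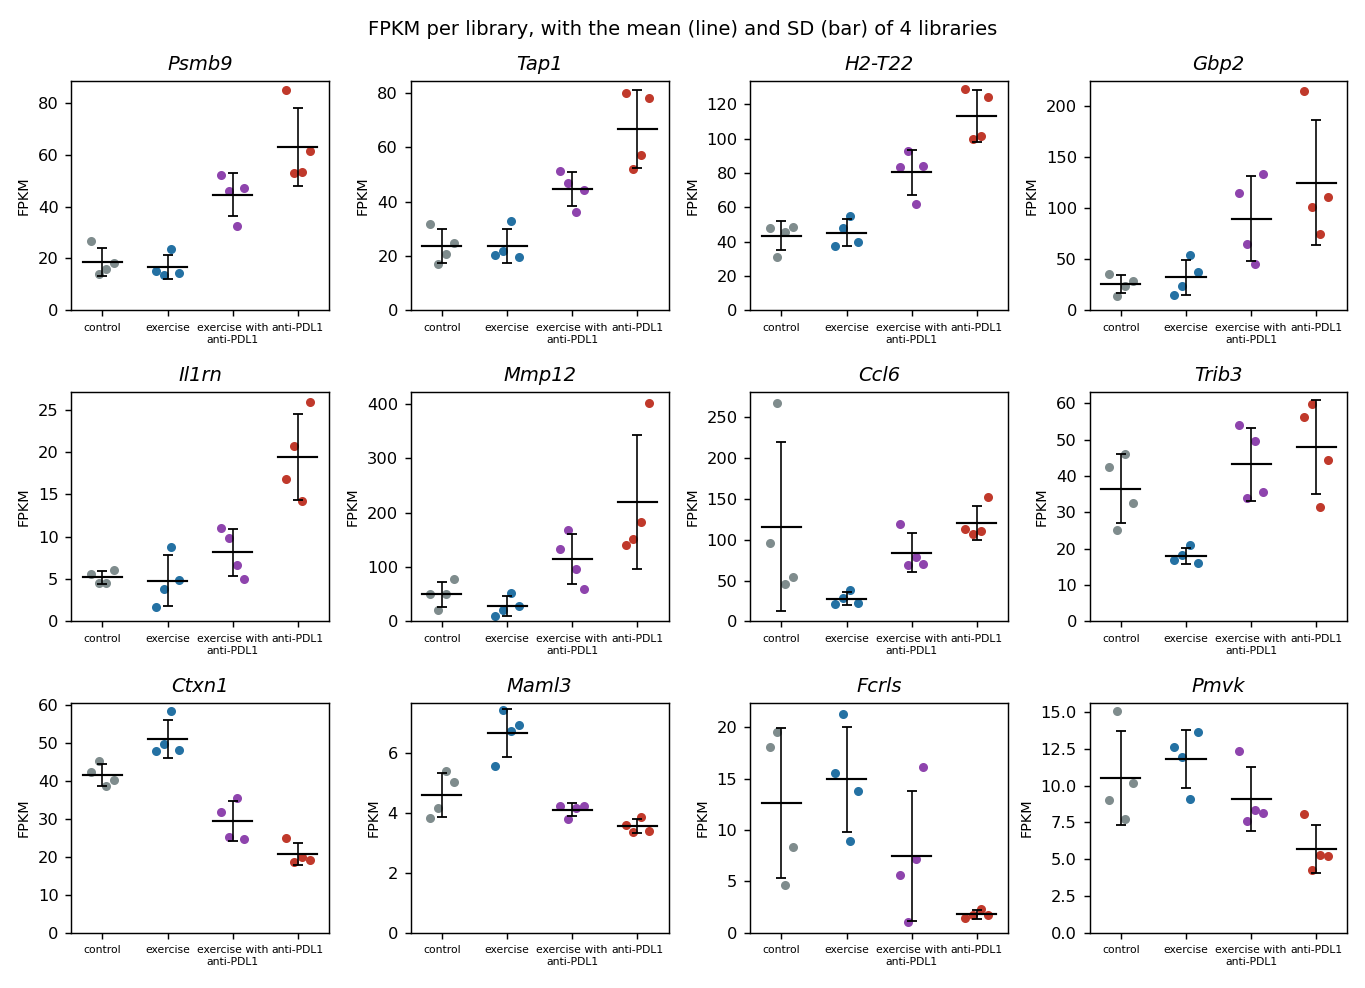
Points are the FPKM of single libraries in the 4 groups for 12 genes, with a line at the mean and a bar of 1 SD (n = 4), each panel on its own linear axis. For Psmb9, Tap1 and H2-T22 all anti-PDL1 libraries lie above all exercise libraries, and for Ctxn1 all lie below.

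Targets of interferon gamma were higher with anti-PDL1 but varied widely within each group. Of 24 tested, 7 were called higher and none lower, 17 did not overlap between groups, 23 had a fold change above 0, and the median log2 fold change was 1.52. Among all tested genes, 0.8% were called higher, 4.42% lay higher without overlap and 44.1% were above 0. Summed over the list, the level was 1610, 773, 485 and 735 FPKM in anti-PDL1 1 to 4 and 169, 230, 454 and 383 FPKM in exercise 1 to 4. The lowest anti-PDL1 library, anti-PDL1 3, and the highest exercise library, exercise 3, were thus close. Of the 24, the number called was 0 without any one of exercise 1, 2 and 4 or anti-PDL1 1, 2 and 4, 5 without exercise 3 and 12 without anti-PDL1 3. It was also 0 without the filter on low values and 1 in the fit of only the 8 libraries compared, against 10 with quantile normalization and 13 with library weights.

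Guanylate-binding proteins made up 5 of those 7. Gbp2 (chromosome 3, 142620663 to 142638008) measured 214, 101, 74.3 and 110 FPKM with anti-PDL1 and 14.6, 23.3, 53.7 and 37.5 FPKM with exercise. The groups did not overlap, and the spread within each was several-fold. On the log2 scale the rise was 1.96 ± 0.44 (standard error) (adjusted p = 0.0449). On chromosome 5, between 105012513 and 105295871, Gbp8, Gbp9, Gbp4, Gbp10 and Gbp6 lie next to each other. In that span, drawn from the first to the last called gene, all 5 tested genes were called higher. Their log2 fold changes ran from 1.40 for Gbp10 to 2.25 for Gbp6. Gbp10, which is outside the list, was low throughout, at 0.205 ± 0.096 FPKM with exercise and 2.40 ± 1.48 FPKM with anti-PDL1. Members of this family resemble each other and can share reads. The highest adjusted p of Gbp2, Gbp4 and Gbp6 over the 19 alternatives was 0.132, 0.14 and 0.143, and each lost its call without exercise 1, 2 or 4 or anti-PDL1 1, 2 or 4.

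Irgm1, an immunity-related GTPase, measured 102, 61.4, 40.8 and 76.3 FPKM with anti-PDL1 and 13.7, 13.7, 34.6 and 29.9 FPKM with exercise (log2 fold change 1.61, adjusted p = 0.0401). Cd274, which encodes PD-L1, the target of the antibody, measured 15.5, 10.7, 7.16 and 13.6 FPKM with anti-PDL1 and 1.69, 3.27, 6.33 and 5.34 FPKM with exercise. The groups did not overlap (log2 fold change 1.36, standard error 0.30, adjusted p = 0.0401). Irf1, an interferon-induced transcription factor, did not overlap and was not called (log2 fold change 0.68, adjusted p = 0.1). Ifng itself was too low to be tested, at 1.28, 0.21, 0.33 and 0.17 FPKM with anti-PDL1 and 0, 0, 0.38 and 0.09 FPKM with exercise. The calls of Irgm1 and Cd274 were lost without exercise 1, 2 or 4 or anti-PDL1 1, 2 or 4, with adjusted p-values up to 0.132 and 0.129.

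Other called genes outside the list are likewise known as interferon targets and were named for the size of their change. Gvin1, a very large interferon-inducible GTPase, measured 26.6, 22.3, 7.27 and 13.4 FPKM with anti-PDL1 and 1.98, 0, 3.82 and 3.80 FPKM with exercise (log2 fold change 2.53, adjusted p = 0.0316). Its neighbour Gm4070, a predicted gene of the same family, had a log2 fold change of 2.48 (adjusted p = 0.0458), and reads may be shared between them. Apol9b, an apolipoprotein L gene, rose from 17.1 ± 7.80 FPKM with exercise to 52.8 ± 17.1 FPKM with anti-PDL1 (log2 fold change 1.64, adjusted p = 0.041). Gm4841, an interferon-inducible GTPase gene, had a log2 fold change of 1.95 (adjusted p = 0.0449). Each of these 4 lost its call without exercise 1, 2 or 4 or anti-PDL1 1, 2 or 4, with adjusted p-values up to 0.102 for Gvin1 and 0.14 for Gm4841.

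The promoters of called genes were searched for motifs, with the 250 bases before each start taken from RefSeq (GRCm38.p6). An entry was found for 64 of the 95 genes called higher and 83 of the 93 called lower. The interferon-stimulated response element (GAAA, any pair of bases, GAAA), searched like all motifs on both strands, stood in 7 of the 64 (10.9%) and in 2 of the 83 (2.41%), against 3.37% of 9338 tested genes and 2.98% of all 32851 promoters. The STAT motif TTCNNNGAA was in 6.25% of the higher and 9.64% of the lower genes, against 7.2% of tested genes. CCAAT was in 48.4% and 42.2%, against 41% of tested genes, and TTTNGCGC was in 3.12% of the higher and 0% of the lower genes, against 2.39%. The higher genes with TTTNGCGC are Psmb9 and Tap1, whose windows share 225 bases, so the same site was counted for both. The E-box CACGTG was in 4.69% and 6.02% against 9.79%, the CRE TGACGTCA in 1.56% and 1.2% against 3.09%, and the sterol motif TCACNCCAC in 0% of both against 1.18%. These shares are descriptions of letters in a short window. Windows around the element in 5 of the 7 higher genes are shown so that the matched letters can be compared. They were picked after the matches were known, and capitals mark a single match in each. The Irgm1 and Apol9b windows each hold another match, GAAACCGAAA and GAAATGGAAA. It overlaps the marked match and is partly in lower case. They are chr3:142620589-142620628 read on the minus strand for Gbp2, chr17:36042909-36042948 on the plus strand for H2-T22, chr2:122147533-122147572 on the plus strand for B2m, chr11:48871426-48871465 on the minus strand for Irgm1 and chr15:77729020-77729059 on the minus strand for Apol9b.
Gbp2: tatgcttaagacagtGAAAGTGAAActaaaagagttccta
H2-T22: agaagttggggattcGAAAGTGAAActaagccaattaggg
B2m: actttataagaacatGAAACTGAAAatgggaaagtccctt
Irgm1: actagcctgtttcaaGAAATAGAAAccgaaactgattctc
Apol9b: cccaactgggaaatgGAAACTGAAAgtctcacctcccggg
The Gbp2 and H2-T22 windows carry the same 10 capital letters, and so do those of B2m and Apol9b. The other 2 higher genes with a match are Mmp13 and Dpm1, and the lower ones are Bub1b and E2f8.

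Genes of the type I interferon response were uniformly above 0 in fold change, yet 0 of 26 were called, and at most 2 under any alternative. The median log2 fold change was 0.91, 26 of 26 were above 0, 2 did not overlap between groups, and 10 had an unadjusted p under 0.05 in limma, all higher. For all tested genes the shares were 4.42% higher without overlap and 22.8% at such a p in either direction. The list sum was 1004, 481, 234 and 437 FPKM in anti-PDL1 1 to 4 and 109, 198, 315 and 413 FPKM in exercise 1 to 4, so anti-PDL1 3 fell below exercise 3 and 4. Irf9, a transcription factor of interferon signalling, had the smallest p, with a log2 fold change of 0.84 (adjusted p = 0.0632). Zbp1, a sensor of nucleic acids, measured 54.4, 31.3, 14.6 and 25.9 FPKM with anti-PDL1 and 3.35, 8.27, 16.2 and 21.1 FPKM with exercise (log2 fold change 1.41, adjusted p = 0.116), with overlap. The median fold change of the list was 0.55 without anti-PDL1 1 and 1.31 without anti-PDL1 3.

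Cytotoxic effector genes were higher on average with anti-PDL1, with 0 of 11 called, 5 at an unadjusted p under 0.05 in limma and a median log2 fold change of 1.13. Such a p was reached by 22.8% of all tested genes. Gzmb, the protease granzyme B of killer lymphocytes, measured 16.8, 9.02, 15.7 and 5.80 FPKM with anti-PDL1 and 3.42, 2.93, 6.05 and 4.61 FPKM with exercise. Only anti-PDL1 4 lay within the exercise range (log2 fold change 1.22, standard error 0.41, adjusted p = 0.108). Prf1, the pore protein perforin, had a log2 fold change of 1.13 (adjusted p = 0.177). Nkg7, a granule membrane protein, measured 7.13, 2.80, 3.59 and 2.49 FPKM with anti-PDL1 and 1.37 to 1.92 FPKM with exercise, without overlap (adjusted p = 0.0833). The lymphocyte receptors were near the floor: Cd8a measured 2.23, 0.57, 0.55 and 0.74 FPKM with anti-PDL1 and 0.40 to 0.51 FPKM with exercise, and Cd3e was at most 1.00 FPKM in any of the 8 libraries.

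Of 11 tested checkpoint genes, 2 were called higher, against 0.8% of all tested genes, and the median log2 fold change was 0.10. Besides Cd274, this was Tnfrsf9, the costimulatory receptor 4-1BB, at 16.8, 23.2, 19.8 and 27.5 FPKM with anti-PDL1 and 4.86, 10.49, 13.2 and 6.45 FPKM with exercise (log2 fold change 1.29, adjusted p = 0.047). Havcr2, the receptor TIM-3, did not overlap and was not called (log2 fold change 0.65, adjusted p = 0.0669). Il7r, the interleukin 7 receptor chain, was called (log2 fold change 1.17, adjusted p = 0.0401) with anti-PDL1 4 at 6.55 FPKM far above the 2.30 to 2.83 FPKM of the other 3. Without the filter on low values 0 of the 11 were called, and with only the 8 libraries compared 1 was. Tnfrsf9 and Il7r lost their calls without exercise 1, 2 or 4 or anti-PDL1 1, 2 or 4, with adjusted p-values up to 0.145 and 0.109.

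Several genes of inflammation rose. Il1rn, the antagonist of the interleukin 1 receptor, measured 16.8, 20.8, 14.3 and 25.9 FPKM with anti-PDL1 and 1.74, 3.88, 8.83 and 4.86 FPKM with exercise, with no overlap. It rose by 1.92 ± 0.31 (standard error) on the log2 scale (adjusted p = 0.0143). Il1a, the agonist interleukin 1 alpha, was low, at 1.11, 5.23, 0.95 and 2.24 FPKM against 0.09 to 0.73 FPKM (log2 fold change 1.202, adjusted p = 0.0458). Nos2, the inducible nitric oxide synthase of activated macrophages, measured 8.98, 14.1, 16.3 and 19.6 FPKM with anti-PDL1 and 0.61, 2.00, 6.65 and 2.09 FPKM with exercise (log2 fold change 2.22, adjusted p = 0.0449). Casp4, an inflammatory caspase that senses lipopolysaccharide, averaged 27.9 ± 7.59 and 10.54 ± 2.82 FPKM (log2 fold change 1.31, adjusted p = 0.0412), and Mlkl, the executor of necroptosis, 81.7 ± 9.38 and 53.4 ± 5.24 FPKM (log2 fold change 0.60, adjusted p = 0.0196). Nod1 and Ripk2, a sensor of bacterial cell wall and its kinase, had log2 fold changes of 0.58 and 0.54 (adjusted p = 0.0391 and 0.0489). The call of Il1rn was lost without exercise 2 or anti-PDL1 4, with an adjusted p up to 0.0622. Those of Il1a, Nos2, Casp4, Nod1 and Ripk2 were lost without exercise 1, 2 or 4 or anti-PDL1 2 or 4, among others, and that of Mlkl without exercise 2 or 4 or anti-PDL1 2.

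Among chemokines, 2 of 19 were called, 5 did not overlap, all upward, and the median log2 fold change was 0.72. In that direction, 0.8% of all tested genes were called and 4.42% did not overlap. Ccl6, a chemokine of myeloid cells, measured 113, 107, 110 and 152 FPKM with anti-PDL1 and 21.5, 28.7, 38.9 and 22.8 FPKM with exercise. The 2 groups were far apart and narrow (log2 fold change 2.09, standard error 0.41, adjusted p = 0.0294). The control level was 116 ± 103 FPKM, so on the log2 scale the difference from control was 0.41 with anti-PDL1 (adjusted p = 0.573) and -1.68 with exercise (adjusted p = 0.181). Ccl7, an attractant of monocytes, measured 62.1, 47.1, 40.6 and 58.6 FPKM against 12.7, 15.8, 28.9 and 26.6 FPKM (log2 fold change 1.33, adjusted p = 0.0462). Cxcl9, an interferon gamma target that attracts T cells, did not overlap and was not called, at 49.9, 15.3, 11.7 and 11.6 FPKM against 4.55 to 10.7 FPKM (adjusted p = 0.187). Cxcl10 overlapped (log2 fold change 1.00, adjusted p = 0.353). Neither Ccl6 nor Ccl7 was called without exercise 1, 2 or 4 or anti-PDL1 1, 2 or 4, with adjusted p-values up to 0.104 and 0.142. In the fit of only the 8 libraries compared, which leaves out the widely spread controls, the adjusted p was 0.00138 for Ccl6 and 0.0376 for Ccl7, and without the filter on low values Ccl7 was not called.

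Matrix metalloproteinases, which cleave the extracellular matrix, held the largest rise in the comparison. Mmp12, the macrophage elastase (chromosome 9, 7344397 to 7360461), measured 141, 152, 183 and 402 FPKM with anti-PDL1 and 9.22, 20.3, 52.4 and 28.3 FPKM with exercise. The groups did not overlap, with anti-PDL1 4 far above the rest (log2 fold change 3.05, standard error 0.51, adjusted p = 0.0175). Mmp13, a collagenase, measured 16.7, 23.4, 20.1 and 42.1 FPKM against 2.84, 3.06, 10.1 and 4.30 FPKM (log2 fold change 2.19, adjusted p = 0.0436). Mmp8, the collagenase of neutrophils, measured 2.93, 6.34, 4.55 and 3.16 FPKM against 0.24, 0.22, 1.28 and 0.19 FPKM (log2 fold change 1.84, adjusted p = 0.0106). The 3 genes lie within 1 stretch of chromosome 9, between 7272514 and 7568486, where 4 genes were tested. The fourth, Mmp3, went the other way without a call, at 0.50, 2.76, 1.02 and 0.04 FPKM with anti-PDL1 and 2.65 to 6.12 FPKM with exercise (log2 fold change -1.38, adjusted p = 0.314). Mmp9, the gelatinase B of neutrophils and macrophages, also lay lower without a call, at 9.24, 8.16, 11.01 and 5.73 FPKM with anti-PDL1 and 16.9, 52.5, 22.9 and 20.5 FPKM with exercise. Its groups did not overlap (log2 fold change -1.50, adjusted p = 0.112). Of all 17 tested matrix proteases and inhibitors, 3 were called higher, against 0.8% of all tested genes. Within that list 9 were above 0 and 8 below, and the median log2 fold change was 0.07. Without exercise 2, 0 of the 3 were called, without anti-PDL1 4 there was 1, and without exercise 1 or 4 or anti-PDL1 1 or 2 there were 2. Their adjusted p-values reached 0.0622 for Mmp12, 0.135 for Mmp13 and 0.05 for Mmp8.

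Of 12 tested markers of neutrophils, Mmp8 and Clec4e were called higher (0.8% of all tested genes were), 10 were above 0 and the median log2 fold change was 0.40. The groups did not overlap in 3 genes that were higher and in 1 that was lower, Mmp9, against 4.42% and 8.07% of all tested genes. The third of the higher genes was Clec4d, a C-type lectin of myeloid cells, at 7.35, 8.21, 8.01 and 13.2 FPKM with anti-PDL1 and 1.37, 3.04, 3.56 and 3.44 FPKM with exercise (log2 fold change 1.42, adjusted p = 0.0623). The summed list was 31.3, 93.9, 32.3 and 37.9 FPKM in anti-PDL1 1 to 4 and 24.8, 65.8, 49.5 and 37.8 FPKM in exercise 1 to 4, and the ranges overlapped. The defining markers S100a8 and S100a9 were low and uneven, with S100a8 at 1.30, 9.58, 0.98 and 2.41 FPKM with anti-PDL1 and 0.14 to 3.84 FPKM with exercise. Clec4e, the receptor Mincle, averaged 2.56 ± 0.83 and 1.03 ± 0.25 FPKM (log2 fold change 0.79, adjusted p = 0.0361), a call lost without exercise 1, 2 or 4 or any of anti-PDL1 1, 2 and 4 (adjusted p up to 0.105). The median of the list fell to 0.04 without anti-PDL1 2.

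Markers of monocytes and macrophages lay below 0 in 18 of 20 genes, with a median log2 fold change of -0.76 and 6 genes whose groups did not overlap (8.07% of all tested genes did so in that direction). None of the 20 was called in limma, where 5 had an unadjusted p under 0.05 (4 lower, 1 higher), against 22.8% of all tested genes. Between 0 and 5 were called over the alternatives. Summed over the list the level was 908, 493, 726 and 1106 FPKM in anti-PDL1 1 to 4 and 1214, 1579, 915 and 1285 FPKM in exercise 1 to 4. Cx3cr1, the fractalkine receptor of resident macrophages, measured 2.42, 1.29, 1.24 and 1.66 FPKM with anti-PDL1 and 8.64, 12.2, 5.23 and 6.24 FPKM with exercise (log2 fold change -1.74, adjusted p = 0.0536). Csf1r, the receptor that sustains macrophages, was at 10.47, 6.85, 9.65 and 13.7 FPKM against 27.8, 30.6, 17.1 and 19.5 FPKM (log2 fold change -1.15, adjusted p = 0.146). Cd163, Mrc1, Adgre1 and Apoe also did not overlap, with Cd163 near the floor, at 0.10 to 0.25 FPKM with anti-PDL1. Cd14 and Cd68 went the other way without a call (log2 fold change 0.48 and 0.22, adjusted p = 0.207 and 0.724 in limma). Mertk, Fcgr3, Itgam and Trem2 changed little, with log2 fold changes between -0.14 and -0.08. Myeloid cells are known to express the higher Mmp12, Nos2 and Il1rn. The macrophage markers mostly lay below 0 without a call, and their part in those results was not tested.

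Fcrls, an Fc receptor-like protein known from microglia and resident macrophages, fell furthest of all called genes. It measured 1.38, 1.69, 2.33 and 1.68 FPKM with anti-PDL1 and 15.6, 21.3, 8.96 and 13.8 FPKM with exercise. The lowest exercise library was several times the highest anti-PDL1 library (log2 fold change -2.48, standard error 0.53, adjusted p = 0.0401). Slco2b1, an organic anion transporter, was at 0.84, 0.31, 0.70 and 0.36 FPKM against 2.58, 4.97, 2.41 and 3.93 FPKM (log2 fold change -1.50, adjusted p = 0.0266). Scarb1, the HDL receptor, measured 25.03, 24.6, 24.3 and 19.0 FPKM against 43.9, 45.0, 37.1 and 38.2 FPKM (log2 fold change -0.80, adjusted p = 0.0285). All 3 calls were lost without exercise 2 or 4 or anti-PDL1 2 or 4, and that of Fcrls also without exercise 1, exercise 3 or anti-PDL1 1. Their adjusted p-values reached 0.13, 0.0942 and 0.105.

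**Figure D4:**
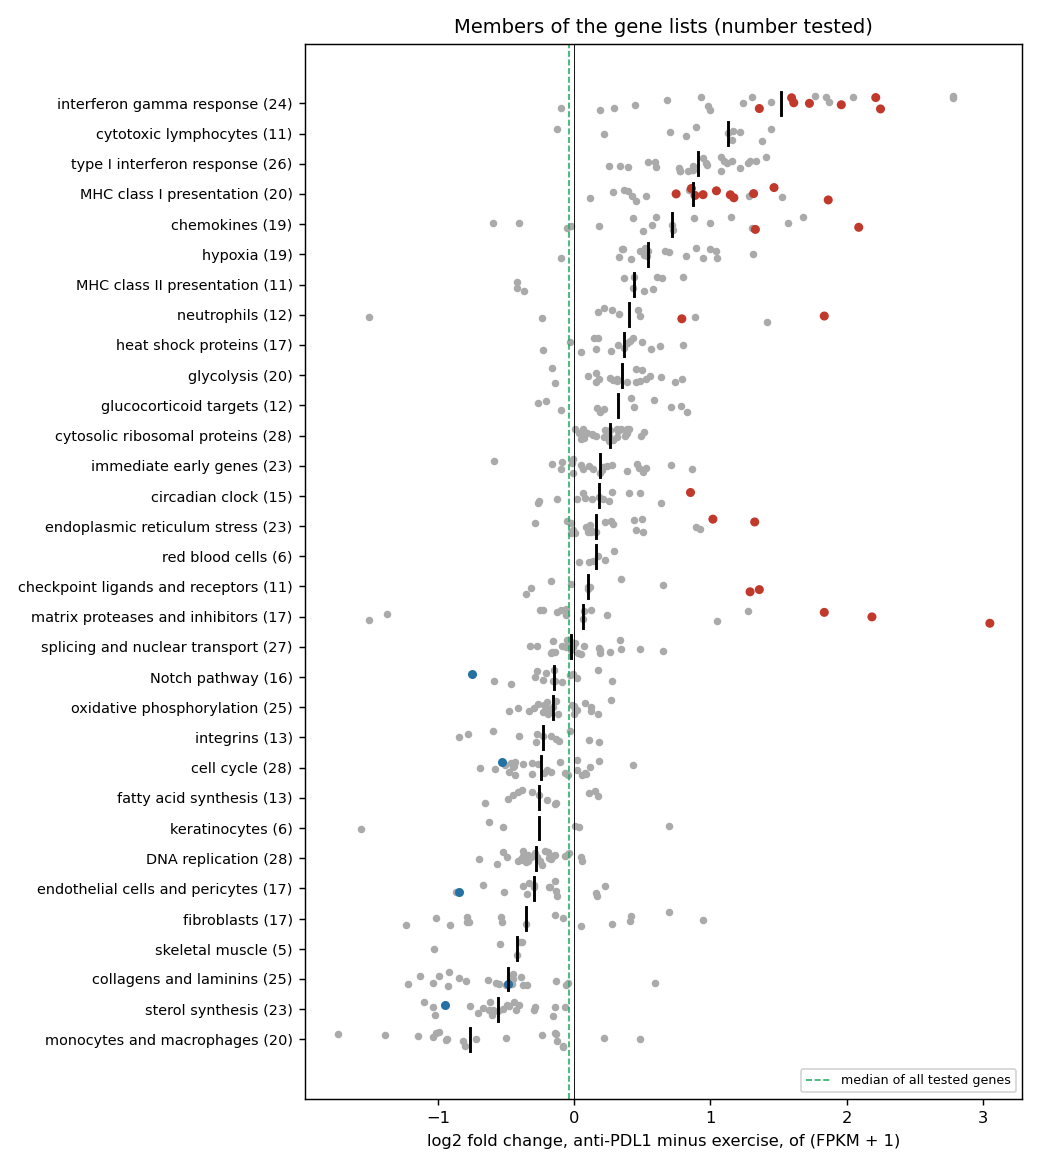
Each point is a tested member of a gene list, with its log2 fold change of (FPKM + 1), anti-PDL1 minus exercise, on the x axis. Black ticks mark list medians, red and blue points are called members, and the dashed line is the median of all tested genes (-0.035). The lists run from interferon gamma targets (median 1.52) at the top to monocytes and macrophages (median -0.76) at the bottom.

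Collagen and laminin genes were mostly below 0 in fold change, and fibroblast markers were mixed. Of 25 collagen and laminin genes, 24 had a fold change below 0, 6 did not overlap, 1 was called lower, and the median log2 fold change was -0.49. Among all tested genes, 44.1% were above 0, 8.07% lay lower without overlap and 0.784% were called lower. The called gene, Lamb1, the laminin beta 1 chain of basement membranes, measured 74.9, 90.3, 84.1 and 68.1 FPKM with anti-PDL1 and 110, 118, 109 and 107 FPKM with exercise. The gap was small and the groups tight (log2 fold change -0.49, standard error 0.10, adjusted p = 0.0265). Col18a1, the precursor of endostatin, was at 30.1, 45.0, 43.6 and 31.7 FPKM against 83.1, 93.5, 75.0 and 59.6 FPKM (log2 fold change -1.03, adjusted p = 0.0574). Of 17 fibroblast markers 0 were called in limma, 11 were below 0 and 6 above (median -0.35), and 5 had an unadjusted p under 0.05, 4 lower and 1 higher. Thbs2, a matricellular protein, did not overlap, at 1.02 to 3.06 FPKM against 4.45 to 8.29 FPKM (adjusted p = 0.0858). Its relative Thbs1 did not overlap in the other direction, at 18.2 to 28.8 FPKM against 5.45 to 17.9 FPKM (log2 fold change 0.95, adjusted p = 0.146). Cilp, an extracellular matrix protein of cartilage and scars, was called, at 3.27, 5.11, 4.33 and 1.70 FPKM against 9.22, 33.4, 20.3 and 18.02 FPKM (log2 fold change -2.14, adjusted p = 0.0474). Of 13 integrins 0 were called, with 3 at an unadjusted p under 0.05 (median -0.23). Over all tested genes, 22.8% had such a p in limma. Without exercise 2 or 4 or anti-PDL1 1 or 4 Lamb1 was not called (adjusted p up to 0.0911), and Cilp was not called without exercise 2, 3 or 4 or anti-PDL1 1, 2 or 4 (up to 0.145).

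Of 17 endothelial and pericyte markers, Cldn5 alone was called, where 0.784% of all tested genes were called lower. This tight junction protein of vessels measured 1.67, 1.46, 1.51 and 1.78 FPKM with anti-PDL1 and 2.93, 2.86, 4.64 and 4.58 FPKM with exercise (log2 fold change -0.85, adjusted p = 0.0341). The list median was -0.30, and the summed list overlapped, at 144 to 213 FPKM against 175 to 229 FPKM. Gata2, a transcription factor of endothelial and blood progenitor cells, averaged 2.33 ± 0.61 and 5.19 ± 0.97 FPKM (log2 fold change -0.90, adjusted p = 0.0242). Tenm3, a teneurin adhesion protein, was at 3.18, 2.53, 3.95 and 2.19 FPKM against 7.59, 9.79, 7.26 and 6.31 FPKM (log2 fold change -1.15, adjusted p = 0.0196), and Crispld2, a secreted protein that binds lipopolysaccharide, at 0.42 to 0.68 FPKM against 2.03 to 2.55 FPKM (log2 fold change -1.11, adjusted p = 0.0242). Each of these 4 lost its call without exercise 2 or anti-PDL1 2 or 4, with adjusted p-values up to 0.0989 for Cldn5.

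Markers of cells that a graft can carry along from its surroundings were low or uneven. Of 20 skeletal muscle markers 14 stayed under 1 FPKM in all 8 libraries, and the sum was 4.37 to 9.75 FPKM with anti-PDL1 and 7.69 to 23.6 FPKM with exercise. Of 17 keratinocyte markers 11 stayed under 1 FPKM. The red cell list was uneven within both groups, at 176, 83.8, 505 and 4081 FPKM in anti-PDL1 1 to 4 and 172, 800, 648 and 213 FPKM in exercise 1 to 4. Its median log2 fold change was 0.16, with -0.87 without anti-PDL1 4, the library with the highest haemoglobin, and 0.89 without anti-PDL1 2, the library with the lowest. The part of these cells in the other results was not tested.

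Ctxn1, cortexin 1, a small membrane protein known mainly from neurons (chromosome 8, 4257646 to 4259274), had the smallest p of all genes. It measured 24.9, 18.6, 20.0 and 19.1 FPKM with anti-PDL1 and 48.0, 49.8, 58.5 and 48.1 FPKM with exercise. Both groups were narrow and far apart. The means were 20.6 ± 2.90 and 51.1 ± 4.98 FPKM, or -1.27 ± 0.12 (standard error) as a log2 fold change (adjusted p = 0.000157 in limma, at most 0.0015 over the 19 alternatives). Controls averaged 41.6 ± 2.84 FPKM, so the log2 difference from control was -0.99 with anti-PDL1 (adjusted p = 0.00166) and 0.29 with exercise (adjusted p = 0.234). Its window of 250 bases before the start is shown as that of the gene that separated the groups best. It is chr8:4259275-4259524 of GRCm38.p6 from RefSeq on the minus strand, and none of the 7 motifs searched was found in it.
Ctxn1: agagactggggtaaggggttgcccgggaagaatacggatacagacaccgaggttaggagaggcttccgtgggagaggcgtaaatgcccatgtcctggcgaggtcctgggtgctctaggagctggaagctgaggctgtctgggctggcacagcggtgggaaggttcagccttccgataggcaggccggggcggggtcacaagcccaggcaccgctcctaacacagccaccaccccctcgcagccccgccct

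Maml3, a Mastermind coactivator of Notch (chromosome 3, 51687320 to 52105319), measured 3.60, 3.36, 3.88 and 3.40 FPKM with anti-PDL1 and 5.58, 7.45, 6.76 and 6.94 FPKM with exercise. There was no overlap (log2 fold change -0.75, standard error 0.10, adjusted p = 0.00457, at most 0.0285 over the alternatives that tested it). The level in controls was 4.61 ± 0.73 FPKM, between the 2. Of 16 Notch pathway genes it was the only one called (0.784% of all tested genes were called lower), and the list median was -0.15. Hes1, a Notch target, overlapped (log2 fold change -0.59, adjusted p = 0.207).

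Other abundant genes were lower by less than 1 on the log2 scale. Lgals1, the lectin galectin 1, measured 2137, 1712, 1976 and 1622 FPKM with anti-PDL1 and 3010, 2496, 3014 and 2948 FPKM with exercise (log2 fold change -0.63, adjusted p = 0.0275). Ptms, the chromatin protein parathymosin, averaged 402 ± 39.1 and 628 ± 27.6 FPKM (log2 fold change -0.65, adjusted p = 0.0117). Tuba1a, an alpha tubulin, and S100a6, a calcium-binding protein, had log2 fold changes of -0.63 and -0.54 (adjusted p = 0.0386 and 0.0485). These 4 genes were named after their values were seen. Mxd4, an antagonist of MYC, fell from 25.2 ± 4.51 FPKM with exercise to 14.0 ± 2.46 FPKM (log2 fold change -0.80, adjusted p = 0.0361), against 15.9 ± 3.75 FPKM in control. Coq8a, a kinase-like protein of coenzyme Q synthesis, had a log2 fold change of -0.95 (adjusted p = 0.0412), Tmem44, a membrane protein, one of -0.96 (adjusted p = 0.0449) and Dynlt1f, a dynein light chain with near-identical copies, one of -0.88 (adjusted p = 0.0391). All 8 lost their calls without exercise 2, with adjusted p-values up to 0.05 for Ptms and 0.14 for Tmem44, and all but Ptms also without exercise 4 or anti-PDL1 2 or 4.

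Sterol synthesis genes were lower with anti-PDL1 in every one of the 23 tested, and their median log2 fold change was -0.56. The test called 1 of them, 18 had an unadjusted p under 0.05 in limma, and 7 did not overlap. For all tested genes the shares were 0.784% called lower, 22.8% at such a p in either direction and 8.07% lower without overlap. The summed list was 509, 339, 480 and 340 FPKM in anti-PDL1 1 to 4 and 1025, 559, 570 and 528 FPKM in exercise 1 to 4, with no overlap and exercise 1 far above the rest. Pmvk, the phosphomevalonate kinase of the mevalonate pathway, measured 8.05, 4.29, 5.28 and 5.19 FPKM with anti-PDL1 and 12.6, 11.97, 9.08 and 13.6 FPKM with exercise (log2 fold change -0.95, standard error 0.20, adjusted p = 0.0337). Srebf2, the transcription factor that drives the pathway, had a log2 fold change of -0.48 (adjusted p = 0.0613), and Idi1, the isopentenyl diphosphate isomerase, one of -1.04 (adjusted p = 0.0665). Pmvk lost its call without exercise 1, 2 or 4 or anti-PDL1 2 or 4 (adjusted p up to 0.107), and 4 genes of the list were called without anti-PDL1 3. The median was -0.35 without exercise 1. Of 13 fatty acid synthesis genes 0 were called in limma, with 5 at an unadjusted p under 0.05 (median -0.26), and Acly, the ATP citrate lyase that supplies both pathways, had the smallest p, with a log2 fold change of -0.49 (adjusted p = 0.0669).

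Genes of the cell cycle leaned lower, with 1 of 28 called, 20 below 0, 8 without overlap and a median log2 fold change of -0.24. Over all tested genes, 44.1% were above 0, 8.07% lay lower without overlap and 0.784% were called lower. Bub1b, a kinase of the spindle checkpoint, measured 18.2, 18.9, 21.7 and 17.4 FPKM with anti-PDL1 and 32.7, 30.0, 24.4 and 24.9 FPKM with exercise (log2 fold change -0.53, adjusted p = 0.0449). E2f8, a repressor in the E2F family that was named for the size of its change, measured 22.9, 21.3, 20.9 and 14.7 FPKM against 42.9, 38.1, 28.5 and 40.2 FPKM (log2 fold change -0.88, adjusted p = 0.0314). Mki67, the proliferation marker Ki-67, did not follow, at 33.0, 33.3, 26.0 and 28.5 FPKM against 63.9, 18.4, 17.4 and 31.1 FPKM, with exercise 1 above and exercise 2 and 3 below all anti-PDL1 libraries (adjusted p = 0.898). Of 28 DNA replication genes 0 were called in limma, with 5 at an unadjusted p under 0.05 (median -0.28), against 22.8% of all tested genes. Bub1b and E2f8 lost their calls without exercise 1, 2 or 4 or anti-PDL1 2 or 4, with adjusted p-values up to 0.139 and 0.107, and the median of the cell cycle list was -0.04 without exercise 1.

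In the stress response 2 genes of 23 were called, both higher, and 5 did not overlap, all upward (median 0.16). Upward calls made up 0.8% of all tested genes, and 4.42% lay higher without overlap. Trib3, a pseudokinase induced by ATF4 and CHOP, measured 56.2, 59.9, 31.4 and 44.4 FPKM with anti-PDL1 and 17.0, 18.2, 21.0 and 16.1 FPKM with exercise. The exercise group was narrow (log2 fold change 1.32, standard error 0.22, adjusted p = 0.0142). Controls averaged 36.5 ± 9.50 FPKM, and the log2 difference from control was 0.38 with anti-PDL1 (adjusted p = 0.293) and -0.94 with exercise (adjusted p = 0.181). Ddit3, which encodes CHOP, measured 52.3, 64.3, 48.5 and 105 FPKM against 22.2, 32.3, 40.9 and 32.6 FPKM (log2 fold change 1.02, adjusted p = 0.0434). Slc1a4, an amino acid transporter of neutral residues, averaged 16.4 ± 1.37 and 9.55 ± 1.76 FPKM (log2 fold change 0.73, adjusted p = 0.027), with controls at 15.9 ± 2.35 FPKM. Trib3 was not called without exercise 2 or anti-PDL1 4 (adjusted p up to 0.0603), nor Ddit3 without exercise 1, 2 or 4 or anti-PDL1 2 or 4 (up to 0.118), nor Slc1a4 without exercise 2 or 4 or anti-PDL1 1, 2 or 4 (up to 0.0851).

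Nfil3, a clock-linked transcription factor of immune cells, measured 12.1, 16.02, 13.9 and 17.3 FPKM with anti-PDL1 and 6.55, 8.03, 9.84 and 6.73 FPKM with exercise (log2 fold change 0.85, standard error 0.14, adjusted p = 0.0143). It was the only one of 15 clock genes called (0.8% of all tested genes were called higher), and the list median was 0.18. Nampt, the rate-limiting enzyme of NAD salvage, averaged 32.4 ± 6.64 and 17.9 ± 2.61 FPKM (log2 fold change 0.81, adjusted p = 0.0151). The coagulation factor genes F7 and F10, neighbours on chromosome 8, were both higher, with log2 fold changes of 0.93 and 1.16 (adjusted p = 0.0449 and 0.0196), and F10 measured 5.45, 7.84, 6.47 and 9.96 FPKM against 1.70 to 3.43 FPKM. Angptl6, an angiopoietin-like growth factor, measured 11.45, 13.7, 6.07 and 10.4 FPKM against 2.55 to 4.14 FPKM (log2 fold change 1.29, adjusted p = 0.0265). With anti-PDL1 and exercise in turn, log2 differences from control were 0.32 and -0.53 for Nfil3 and 0.50 and -0.31 for Nampt. They were 0.50 and -0.66 for F10 and 0.45 and -0.84 for Angptl6, where exercise against control had 0 called genes. Nampt, F7, F10 and Angptl6 were named after their values were seen. All 5 lost their calls without exercise 2 or anti-PDL1 4, with adjusted p-values of at most 0.056 for Nfil3, 0.0622 for Nampt, 0.128 for F7, 0.0715 for F10 and 0.0889 for Angptl6.

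The lists of hypoxia, glycolysis, oxidative phosphorylation and ribosomal protein genes held 0 called genes in limma. Of 19 hypoxia genes 18 were above 0 (median 0.54) and 11 had an unadjusted p under 0.05, and Ero1l, an oxidoreductase of the endoplasmic reticulum, did not overlap, at 52.2, 61.3, 65.9 and 149 FPKM against 16.1, 34.2, 48.7 and 28.4 FPKM (adjusted p = 0.0767). Of 20 glycolysis genes 18 were above 0 (median 0.35) and 9 had an unadjusted p under 0.05. Of 25 oxidative phosphorylation genes 18 were below 0 (median -0.16) and 11 had an unadjusted p under 0.05 in limma. The groups did not overlap in 7 of them, all lower, against 8.07% of all tested genes. All 28 ribosomal protein genes on the list were above 0 (median 0.26) and 16 had an unadjusted p under 0.05, and that median was 0.06 with quantile normalization. Heat shock proteins (17 tested, median 0.37), glucocorticoid targets (12, median 0.32), immediate early genes (23, median 0.19), splicing and nuclear transport genes (27, median -0.03) and MHC class II genes (11, median 0.44) had 0 calls as well, with 4, 3, 4, 5 and 1 genes at an unadjusted p under 0.05. H2-DMb1, which helps to load class II molecules, had the smallest p of the class II list (log2 fold change 0.61, adjusted p = 0.058). The share of all tested genes at an unadjusted p under 0.05 was 22.8%, and 0 calls do not show that the groups were alike in these genes.

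Some called genes were neighbours. Of the 93 genes called higher with a position, 27 lay in 9 runs of called genes no more than 500 kb apart, and 12 of the 91 called lower lay in 6 runs. Each span was drawn from its first to its last called gene, so a high share of called genes within it follows by construction. The same count was not made for genes not called, so whether called genes cluster was not tested. On chromosome 17, between 33996012 and 34216321, H2-K1, Psmb9, Tap1, Psmb8 and Tap2 were 5 of 14 tested genes, among which H2-DMa, H2-DMb1, Brd2 and Rxrb were not called. Further along the same chromosome, H2-D1 and H2-Q4 were both of the 2 tested in their run, and H2-T22, H2-T-ps, H2-T10 and Gm8909 were 4 of 5. The lower runs held 2 genes each, such as Dynlt1c and Dynlt1f, whose reads may be shared.

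Control and combined treatment are set beside the comparison as values, since both contrasts with control use the same libraries. With antibody against control 30 genes (0.253%) were called, and with exercise against control 0 (0%). At an unadjusted p under 0.05 in limma, the only tool run there, the numbers were 2789 (23.5%) with antibody and 2131 (18%) with exercise. Psmb9 averaged 18.7 ± 5.496 FPKM in control, 16.7 with exercise, 44.5 ± 8.30 with exercise and anti-PDL1 together, and 63.1 with anti-PDL1. Its log2 difference from control was 1.72 with anti-PDL1 (adjusted p = 0.002) and -0.15 with exercise (adjusted p = 0.724). Tap1 and H2-T22 gave the same order of sizes: the log2 difference from control was 1.48 and 1.38 with anti-PDL1 and 0.01 and 0.06 with exercise. Mmp12 averaged 50.0 ± 23.2 FPKM in control and 114 ± 46.5 with both treatments, and its log2 difference from control was 2.11 with anti-PDL1 (adjusted p = 0.07) and -0.94 with exercise (adjusted p = 0.338). Nos2 averaged 6.52 ± 5.02 FPKM in control and 4.76 ± 1.48 with both treatments.

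Over the 188 called genes, the mean of the control group lay between those of the 2 single treatments in 168 (89.4%), against 32.7% of all tested genes, and it was nearer to exercise in 129 (68.6%), against 53.4% of all tested genes. The mean of the combined treatment lay between them in 181 (96.3%), against 48.7% of all tested genes. It was nearer to exercise in 36 (19.1%), against 41.1% of all tested genes, and nearer to anti-PDL1 in the other 152. The called genes were chosen for a wide gap between the 2 groups, which leaves room for another mean within it, so these shares are descriptions.

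**Figure D5:**
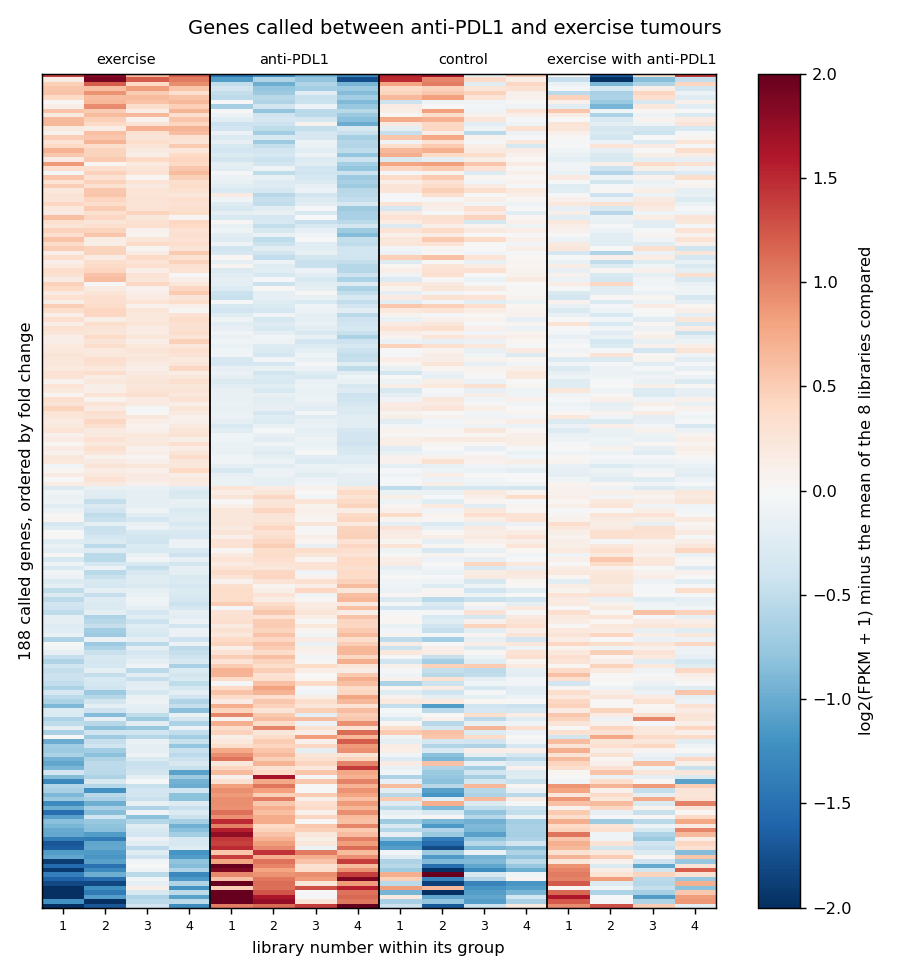
Rows are the 188 called genes ordered by fold change, columns are the 16 libraries by group, and colour gives log2(FPKM + 1) minus the mean of the 8 libraries compared, limited to -2 and 2. Exercise 3 is the palest exercise column and anti-PDL1 3 the palest anti-PDL1 column over the strongest rises at the bottom.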

How the data were processed

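RNA was measured in 16 libraries of MC38 tumours, grouped by their titles into 4 groups of 4. Per the labels' protocols, Trizol was used to extract total RNA. The deposited values are FPKM with 2 decimals for 18480 entries, per the file headers. The submitters' processing notes name HISAT, Bowtie2 and GRCm38.p6 without saying what each did. The aligner's role, the program behind FPKM and the strand of counting are not given in the sources available, so overlapping or antisense genes may share reads. Of 11505 low values, 39.1% were multiples (tolerance 0.15) of their gene's lowest value. Whole reads were therefore not recovered, and depth and counting error are unknown.

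Fold changes are on the log2(FPKM + 1) scale, on which low genes change less than their true ratio. The 11868 genes that reached 1 FPKM in 4 or more libraries were tested with limma 3.58.1 in R 4.3.3 (eBayes, trend and robust), in a single fit of the 4 groups, which share the estimate of the spread. The contrast was anti-PDL1 minus exercise, two-sided, with Benjamini-Hochberg adjustment and a threshold of 0.05. The fit was tested on simulated data. It was repeated with trend and robust off, after quantile normalization or centring on library medians, with no filter, with a filter at a mean of 5 FPKM, with pseudocounts 0.1 and 0.01, on the 8 libraries alone, with a replicate block, with library weights and with single libraries left out. One repeat, in which controls 1 and 2 did not enter the spread, was chosen after seeing the data.

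The comparison and the 38 gene lists were chosen with earlier results of these data known. Lists of 5 or more tested members are described by counts and medians. Named were the 15 largest rises and 15 largest falls among called genes without overlap, 3 members with the smallest p per list described, and a panel of 13 genes. Other named genes were chosen after their values were seen, and 1 gene of the interferon gamma list is not reported here. RefSeq (GRCm38.p6) held the symbol of 17960 entries and gave coordinates and promoters. Another 26 entries had symbols that read as dates, and 3 symbols on 2 entries each were not named. Figures were drawn with matplotlib 3.10.9.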

Additional observations from a re-analysis of the deposited data

Results flagged for a closer look

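Each group of 4 libraries was searched for a library standing apart from the other 3, for the 112 genes named above. Of 448 groups 22 held such a library, where chance gives about 1 in 20, so the number is no more than chance gives.

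In the anti-PDL1 group, anti-PDL1 1 was high for Cd8a (2.23 FPKM, others 0.55 to 0.74) and low for F7 (1.48, others 2.42 to 2.63). Anti-PDL1 2 was low for Mrc1 (2.71, others 4.80 to 5.14). Anti-PDL1 3 was low for Casp4 (16.6, others 30.3 to 32.6) and high for Cd163 (0.25, others 0.10 to 0.12). Anti-PDL1 4 was high for Ccl6 (152, others 107 to 113) and Gm8909 (21.6, others 15.02 to 15.95) and low for Scarb1 (19.0, others 24.3 to 25.03).

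In the exercise group, exercise 3 was high for Psmb9 (23.8 FPKM, others 13.7 to 14.99) and Mmp8 (1.28, others 0.19 to 0.24) and low for Mrc1 (6.16, others 11.0 to 12.3). Exercise 2 was low for Lgals1 (2496, others 2948 to 3014), and exercise 1 was low for Tmem44 (1.46, others 2.59 to 2.82).

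In the groups set beside them, control 2 was low for H2-T22 (30.8 FPKM), Tap2 (11.95) and Gbp6 (1.73). Control 4 was low for Idi1 (4.22) and control 1 high for Cd3e (0.60) and Mmp9 (73.7). With both treatments, library 2 was low for Maml3 (3.80) and Scarb1 (23.7), and library 1 was high for Cldn5 (3.14).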

How the results depend on the processing

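The 188 called genes kept their direction in every setting that tested them, which leaving out a library could not change for the 183 without overlap. The number called, given with its split into higher and lower, moved. There were 298 calls (150 and 148) with quantile normalization, 77 (42 and 35) without the filter on low values and 823 (472 and 351) with library weights. Leaving out 1 library at a time gave between 9 and 422 calls, between 7 and 261 of them higher and between 2 and 161 lower, lowest without exercise 2 and highest without anti-PDL1 3. The count lay between 154 and 252 (1.5 times or less from 188) without trend and robust settings, with centring, a mean of at least 5 FPKM, either other pseudocount, only the 8 libraries compared, or the spread estimated without controls 1 and 2. The cause was not tested. With only the 8 libraries compared, 108 of 210 calls were among the 188.

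Deviations from the group means correlated at -0.108, -0.132, -0.155 and -0.106 between libraries of the same number, and 0 libraries correlated best with their own number. No pairing by the numbers in the titles was thus seen, but a weak one could be missed. With the replicate number as a block there were 62 calls (36 higher and 26 lower), 60 of them among the 188, and 1 of the 24 interferon gamma targets was called.

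The depth behind FPKM is unknown, so the precision of low values rests on the spread between libraries alone. With 4 libraries a group, 1 library can decide a call, and genes near the threshold should be read by their values and ranges.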
